A study of Homo sapiens with 2 samples.

Results

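Solute carriers are the membrane proteins that move ions, sugars, amino acids, metals, vitamins and metabolites across the plasma membrane and the membranes of organelles. Their genes are named SLC, a family number, a letter and a member number. The SLC25 family, the mitochondrial carriers, is the largest: most of its proteins sit in the inner mitochondrial membrane and exchange nucleotides, carboxylates, amino acids, phosphate or cofactors between the matrix and the cytosol. A typical SLC25 protein is built from tandem repeats, each with a signature in which a proline is followed by an acidic and then a basic residue, and the signature residues help to close the carrier on one side.

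The exons described here were the distinct exons listed as skipped in the skipped-exon table of the study and assigned to a gene symbol that starts with SLC and a number, with the SLC9 family left out. This rule gave 1067 exons of 220 gene symbols, in 1938 events, out of 67154 exons of 11965 symbols in 113456 events in the whole table. SLC25 supplied 187 exons of 40 symbols in 422 events, and the other families supplied 880 exons of 180 symbols in 1516 events. Symbols were the rule, so at least 4 of the 220 name no carrier: SLC25A25-AS1, a long non-coding RNA antisense to SLC25A25, SLC2A4RG, a regulator of a glucose transporter gene, SLC4A1AP, an adaptor protein, and SLC7A6OS, a gene on the opposite strand of SLC7A6. For 3 more symbols, SLC22A20, SLC26A10 and SLC35E2, no match was found in the annotation, so whether they name a carrier gene was not checked.

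The study sequenced polyadenylated RNA of HEK293T cells, a human embryonic kidney line that carries the SV40 large T antigen, to ask which exons respond when splicing is perturbed. There were 2 libraries, 1 from control cells and 1 from cells given amiloride at 300 µg/mL for 6 h. Amiloride is a potassium-sparing diuretic that blocks epithelial sodium channels and sodium-proton exchangers. Each condition had 1 library, so there were no replicates. Read counts, inclusion levels and a difference between the 2 conditions are not reported, because the table numbers its libraries without naming their condition. Sequencing depth is therefore not given either. What follows describes which solute carrier exons were listed, where they lie and what they are made of. A listed event does not say how often the exon was skipped, or in which condition. Intervals are 95% Wilson intervals for shares and order-statistic intervals for medians. They cover counting error only, since exons of 1 gene share their transcripts, and no test was made between classes.

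An event is 1 row of the table: an exon, the exon before it and the exon after it, with the junction that joins these neighbours when the middle exon is left out. An exon can be listed in several events, with different neighbours. Positions are on hg19, and exon numbers refer to the Ensembl canonical transcript in GENCODE release 44. The build was checked on the splice sites: 99.1% of the 1067 exons had AG before and GT after them, against 98.9% of all exons of the table, and 1061 of the 1067 were annotated exons. Of the solute carrier exons, 96.6% overlapped coding sequence (95.4 to 97.6%).

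The 5 shortest coding exons are shown with 20 bases of the intron before them and 6 bases of the intron after them. Capitals mark the exon. They are shown because so little sequence separates their splice sites, and all 5 lie wholly within an annotated coding segment. For SLC25A10 that segment can be that of a longer exon. The lengths of 18 and 36 bases are multiples of 3 and those of 10, 31 and 34 bases are not. Exons of SLC25A25, SLC30A6 and SLC43A1 also had 36 bases, and SLC10A7 was taken by symbol order. A non-coding exon of 27 bases was listed in SLC25A51.
SLC25A10, chr17:79684512-79684521, plus strand: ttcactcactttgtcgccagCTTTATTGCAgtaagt
SLC8A1 exon 5, chr2:40401965-40401982, minus strand: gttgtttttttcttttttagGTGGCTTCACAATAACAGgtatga
SLC35B1 exon 4, chr17:47783228-47783258, minus strand: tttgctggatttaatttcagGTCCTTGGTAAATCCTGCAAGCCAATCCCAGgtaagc
SLC35D1 exon 2, chr1:67518639-67518672, minus strand: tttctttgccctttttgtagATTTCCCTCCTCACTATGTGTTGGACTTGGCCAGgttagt
SLC10A7 exon 6, chr4:147247113-147247148, minus strand: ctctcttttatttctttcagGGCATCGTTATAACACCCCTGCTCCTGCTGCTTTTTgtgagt

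The shortest listed exon had 10 bases and lay in SLC25A10, the dicarboxylate carrier. It had the same end as exon 8 of that gene, which spans 93 bases at chr17:79684429-79684521, and so it is a shorter form of that exon. The table of alternative 3' splice sites listed the same choice, with a difference of 83 bases. The length of the short form is not a multiple of 3, while that of the long form is. The exon of 18 bases belongs to SLC8A1, the sodium-calcium exchanger, whose large cytosolic loop is known to be encoded by a cluster of alternative exons. It was listed in 2 events, in which at least 4 canonical exons were jumped. The exons of SLC35B1, SLC35D1 and SLC10A7 spanned 31, 34 and 36 bases. SLC35B1 carries nucleotides into the endoplasmic reticulum, SLC35D1 carries nucleotide sugars, and SLC10A7 is a member of the bile acid transporter family.

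At the other end, the longest coding exons were exon 2 of SLC2A12, a glucose transporter, with 1341 bases, and exon 4 of SLC16A14, a member of the monocarboxylate transporter family, with 978 bases. Exon 3 of SLC52A2, a riboflavin transporter, followed with 871 bases. Each was listed in 1 event, and only for SLC52A2 was the skipping junction annotated. Exons of over 300 bases made up 3 of the 187 SLC25 exons (1.60%, 0.547 to 4.61%) and 36 of the 880 others (4.09%, 2.97 to 5.61%).

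A larger share of the mitochondrial carrier genes and of their exons was listed than in the other families. Of 48 annotated protein-coding SLC25 genes, 39 had at least 1 listed exon (81.2%, 68.1 to 89.8%), compared with 177 of 312 other SLC genes (56.7%, 51.2 to 62.1%) and 53.9% of 19869 protein-coding genes. A gene counted as listed only under its current GENCODE symbol. Genes listed under an older symbol were missed, so these shares can be too low. The SLC25 genes with no listed exon were SLC25A2, SLC25A6, SLC25A31, SLC25A34, SLC25A37, SLC25A41, SLC25A47, SLC25A52 and SLC25A53. Within the 39 listed SLC25 genes, 168 of 254 internal canonical exons were listed (66.1%, 60.1 to 71.7%). The share was 813 of 1740 in the other SLC genes (46.7%, 44.4 to 49.1%) and 48.8% in all listed protein-coding genes. With genes not listed under their current symbol included, the shares were 168 of 274 in SLC25 (61.3%, 55.4 to 66.9%) and 823 of 2952 in the others (27.9%, 26.3 to 29.5%). Exons were matched by position, so the rise from 813 to 823 came from exons listed under another symbol. The intervals of the classes did not overlap. SLC25 genes were shorter, with a median of 6 internal exons compared with 9. Among genes with 4 to 9 internal exons, the shares were 120 of 185 in SLC25 (64.9%, 57.7 to 71.4%) and 293 of 534 in the others (54.9%, 50.6 to 59.0%), and these intervals overlapped. Whether an exon is listed can depend on how strongly its gene is transcribed and read, and the part of expression in these shares was not tested.

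**Figure D1:**
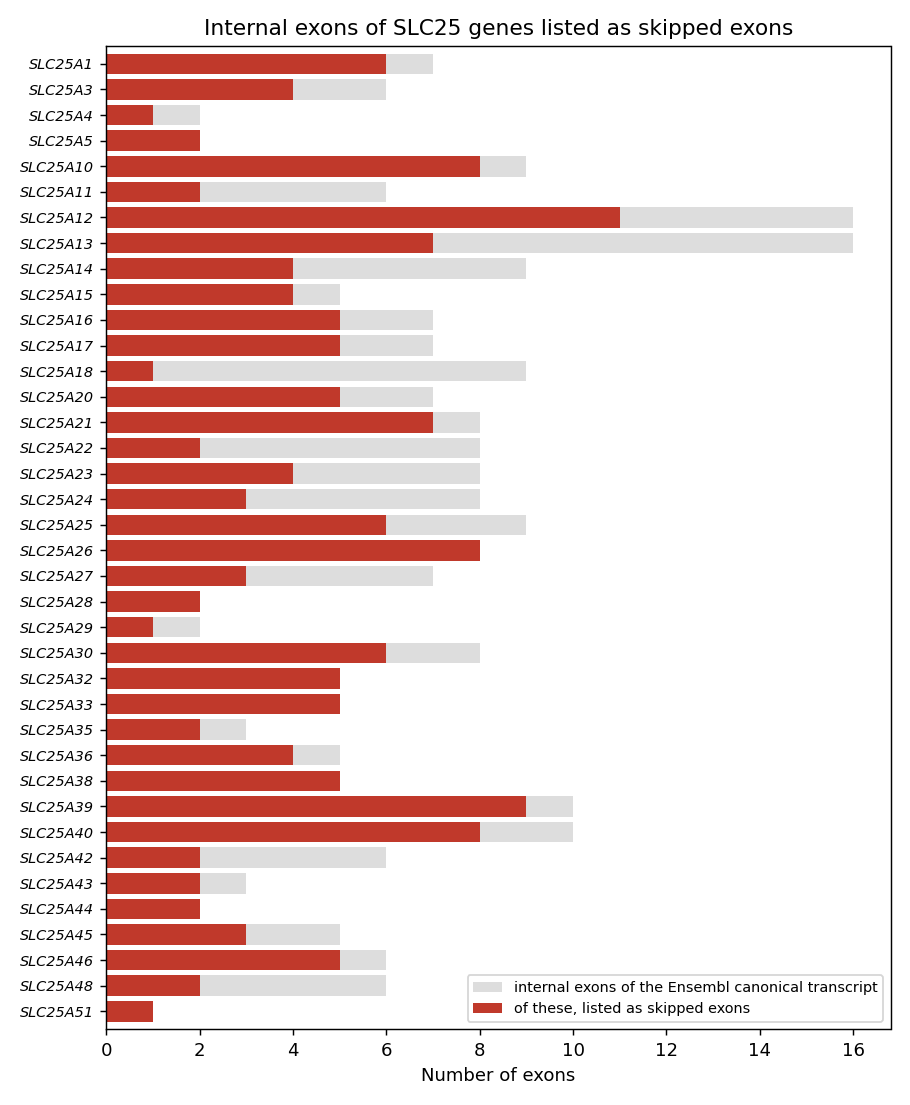
Internal exons of the Ensembl canonical transcript (grey, number of exons on the x axis) and those of them listed as skipped exons (red) for 38 of the 39 protein-coding SLC25 genes with a listed exon. SLC25A12 and SLC25A13 each have 16 internal exons, of which 11 and 7 were listed, while SLC25A26 had all 8 listed.

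Every internal exon was listed in 9 SLC25 genes. They included SLC25A5, an ADP/ATP carrier, SLC25A26, the S-adenosylmethionine carrier, SLC25A28, an iron carrier, SLC25A32, a folate and flavin carrier, SLC25A33, a pyrimidine nucleotide carrier, SLC25A38, a glycine carrier, SLC25A44, a carrier of branched-chain amino acids, and SLC25A51, an NAD carrier. Their internal exons numbered from 1 in SLC25A51 to 8 in SLC25A26. The lowest share belonged to SLC25A18, a glutamate carrier, with 1 of 9.

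Grouped by what they carry, the carboxylate and carnitine carriers had 28 of 37 internal exons listed (75.7%, 59.9 to 86.6%) and the nucleotide and cofactor carriers 57 of 79 (72.2%, 61.4 to 80.8%). The carriers of phosphate, iron, glutathione and protons had 36 of 52 (69.2%, 55.7 to 80.1%). The amino acid carriers had 33 of 63 (52.4%, 40.3 to 64.2%). Other or unassigned carriers had 14 of 23 (60.9%, 40.8 to 77.8%). The intervals of all these groups overlapped.

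Outside mitochondria, nucleoside transporters stood at 27 of 34 internal exons (79.4%, 63.2 to 89.7%) and the acetyl-CoA and nucleotide sugar transporters, which mostly serve the Golgi and the endoplasmic reticulum, at 79 of 123 (64.2%, 55.4 to 72.1%). Metal ion transporters had 114 of 195 (58.5%, 51.4 to 65.1%). Amino acid transporters, at 180 of 385 (46.8%, 41.8 to 51.7%), and sugar transporters, at 90 of 196 (45.9%, 39.1 to 52.9%), were near the share of all genes. The lowest shares were those of cation-chloride cotransporters (34.2%, 26.2 to 43.2%), anion and bicarbonate exchangers (29.9%, 24.5 to 35.9%) and calcium exchangers (25.4%, 16.3 to 37.3%), as well as peptide transporters, with 7 of 26. Genes of the first pair of these groups are long, with medians of 22 and 19 internal exons. All these groups were assigned by family number, not by the substrate of each member. The sugar group therefore included SLC2A4RG, with 4 of 6 internal exons listed. The anion and bicarbonate group included SLC4A1AP, with 10 of 12. Neither is a carrier.

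**Figure D2:**
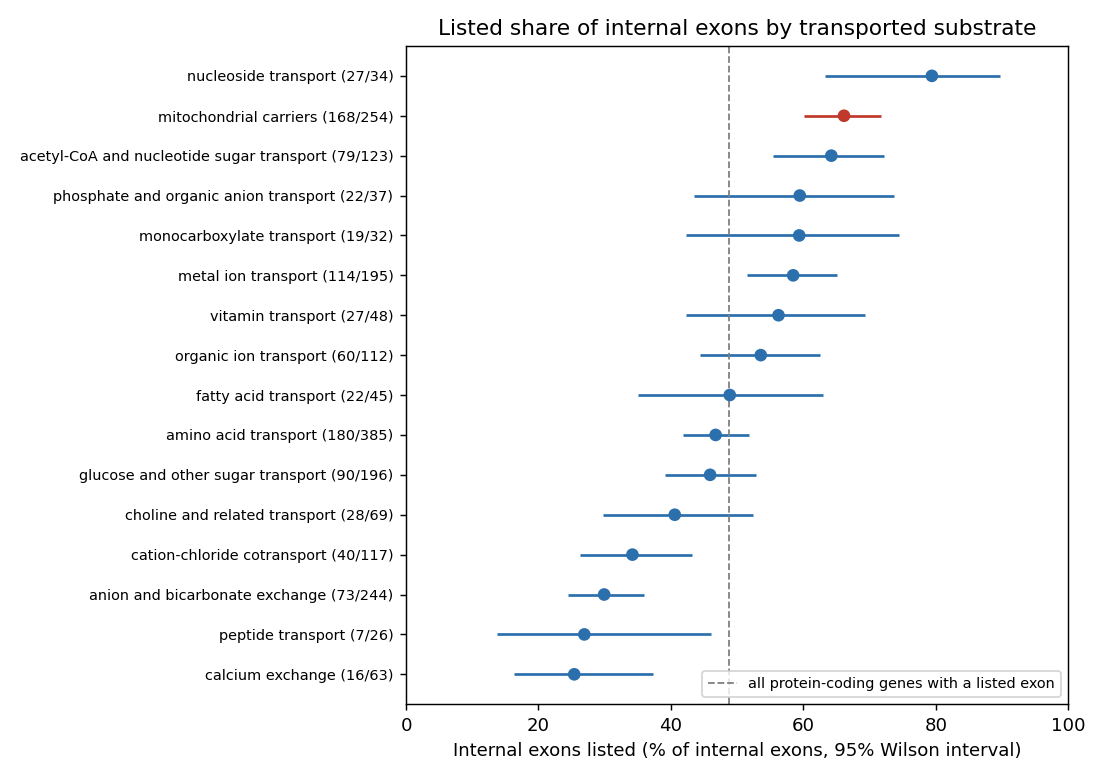
Internal canonical exons listed as skipped, as a percentage of internal exons in genes with a listed exon, for 16 groups of solute carriers (points, with 95% Wilson intervals, counts in brackets). Groups were assigned by family number. Mitochondrial carriers (red) stood at 66.1%, above the dashed line at 48.8% for all protein-coding genes with a listed exon, and calcium exchangers were lowest at 25.4%.

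The SLC25 gene with the most listed exons was SLC25A12, the calcium-regulated aspartate-glutamate carrier, with 11 exons in 35 events. The listed exons were exons 3, 4 and 9 to 17 of 18, and exons 5 to 8 were not listed. SLC25A10 followed with 10 exons in 14 events, and SLC25A39, which is needed for glutathione import into mitochondria, with 10 exons in 45 events. In the other families, SLC26A11, a sulfate and anion transporter, had 16 listed exons, and SLC47A1, a drug and toxin extruder, had 14. SLC11A2, an iron transporter, SLC12A2, the sodium-potassium-chloride cotransporter, and SLC29A2, a nucleoside transporter, had 13 each, as did SLC30A6 and SLC38A9. In SLC29A2 and SLC30A6 all internal exons were listed, 10 and 12.

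SLC25A12 and SLC25A13, the latter known as citrin, encode the same kind of carrier and have the same exon layout. They were set side by side after their values were seen. Both canonical transcripts have 16 internal exons, and 15 of these pairs had equal lengths, with 59.4 to 83.5% identical bases (median 73.3%). Despite this likeness, 4 exon pairs were listed in both genes, 7 in SLC25A12 alone, 3 in SLC25A13 alone and 2 in neither. In SLC25A12 every exon from 9 to 17 was listed. In SLC25A13 only exons 9 and 14 of this stretch were listed, while exons 2, 5 and 8, which were not listed in SLC25A12, were. The early exons encode the calcium-binding part of these proteins, and the later exons encode the carrier part.

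The carrier signature was searched in the translated canonical transcripts as proline, any residue, an acidic residue, any pair of residues and a basic residue. In both SLC25A12 and SLC25A13 exon 14, with 141 bases, held a signature and was listed. Its sequences are printed to show how alike the exons of these genes are. Capitals mark the 18 bases that encode the signature, and both sequences are on the minus strand.
SLC25A12 exon 14, chr2:172650137-172650277, listed: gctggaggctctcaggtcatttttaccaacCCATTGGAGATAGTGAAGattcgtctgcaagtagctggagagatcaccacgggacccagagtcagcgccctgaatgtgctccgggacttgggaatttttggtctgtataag
SLC25A13 exon 14, chr7:95775868-95776008, listed: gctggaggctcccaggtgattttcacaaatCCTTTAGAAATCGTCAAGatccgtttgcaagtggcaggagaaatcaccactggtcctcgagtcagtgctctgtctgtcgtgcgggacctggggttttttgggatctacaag

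These exons were 76.6% identical. Exon 14 was listed in 3 events in SLC25A12 and in 1 event in SLC25A13. Its length is a multiple of 3. The junction listed in SLC25A13 jumped this exon alone and so removed a signature with the frame kept. In SLC25A12 no listed junction jumped exon 14 alone, and from 2 to 6 canonical exons were left out together.

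Across the family, 98 signatures were found in the 39 listed SLC25 genes, and 22 of the genes had 3. Internal exons with a signature were listed in 61 of 88 cases (69.3%, 59.0 to 78.0%), and internal exons without one in 107 of 166 (64.5%, 56.9 to 71.3%), so the intervals overlapped. At least 1 signature exon was listed in 33 of the 39 genes. Of the 61 listed signature exons, 29 had a length that is a multiple of 3 (47.5%, 35.5 to 59.8%). SLC25A26 and SLC25A39 had all 3 of their signature exons listed. In SLC25A1, the citrate carrier, exons 2, 4 and 7 held the signatures and all 3 were listed. SLC25A3, the phosphate and copper carrier, had its signatures in exon 3, which was listed, and exon 5, which was not.

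SLC25 exons took part in more events than those of other families. More than 1 event was listed for 108 of 187 SLC25 exons (57.8%, 50.6 to 64.6%), for 333 of 880 exons of other SLC genes (37.8%, 34.7 to 41.1%) and for 40.0% of all exons of the table. The median was 2 events per exon in SLC25 and 1 elsewhere. Of the 422 SLC25 events, SLC25A26 and SLC25A39 supplied 45 each and SLC25A12 supplied 35. The number of events can also depend on how strongly a gene is transcribed and read, which was not tested. The SLC25 exon with the most events, 12, was exon 6 of SLC25A26. Exon 7 of SLC25A39 came next with 8. The highest counts in the other families belonged to SLC37A3, a member of the sugar phosphate exchanger family, whose exon 7 was listed in 17 events and whose exon 9 was listed in 14. The highest count in the whole table was 18. Exon 6 of SLC25A26 and exon 7 of SLC37A3 are shown with the exon in capitals, because they are the exons with the most different pairs of neighbours.
SLC25A26 exon 6, chr3:66396788-66396832, plus strand: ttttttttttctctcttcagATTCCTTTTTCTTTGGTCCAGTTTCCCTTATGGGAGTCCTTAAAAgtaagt
SLC37A3 exon 7, chr7:140055468-140055564, minus strand: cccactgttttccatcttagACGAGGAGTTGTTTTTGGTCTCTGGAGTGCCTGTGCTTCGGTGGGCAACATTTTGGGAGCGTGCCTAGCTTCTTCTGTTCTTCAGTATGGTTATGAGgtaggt

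**Figure D3:**
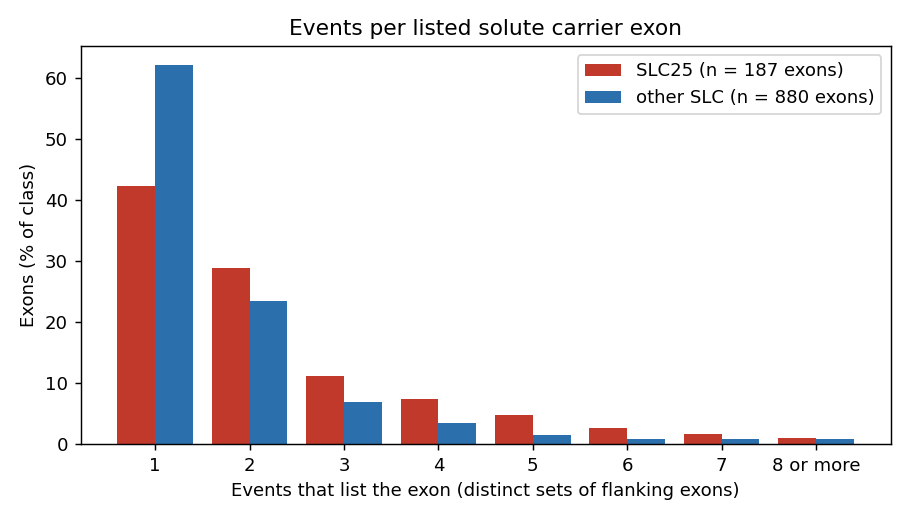
Number of events that list an exon (x axis) against the percentage of listed exons of the class (y axis), for 187 SLC25 exons (red) and 880 exons of other solute carrier genes (blue). Exons with 1 event made up 42.2% of the SLC25 exons and 62.2% of the others.

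SLC25A26 had 45 events over 9 exons, which used 24 different skipping junctions, 8 of them in the annotation. The junctions ranged from those that jumped 1 canonical exon to 1 that jumped all 8 internal exons and joined the first exon to the last. Exon 6 itself spans 45 bases, a multiple of 3, and its upstream intron spans 41826 bases. In SLC37A3, 105 events over 12 exons used 43 junctions, and 11 of these were annotated. Its longest junction jumped 12 canonical exons. SLC25A12 showed 22 junctions, of which 1, from exon 3 to exon 5, was annotated. SLC25A39 had 24 junctions and 2 were annotated.

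**Figure D4:**
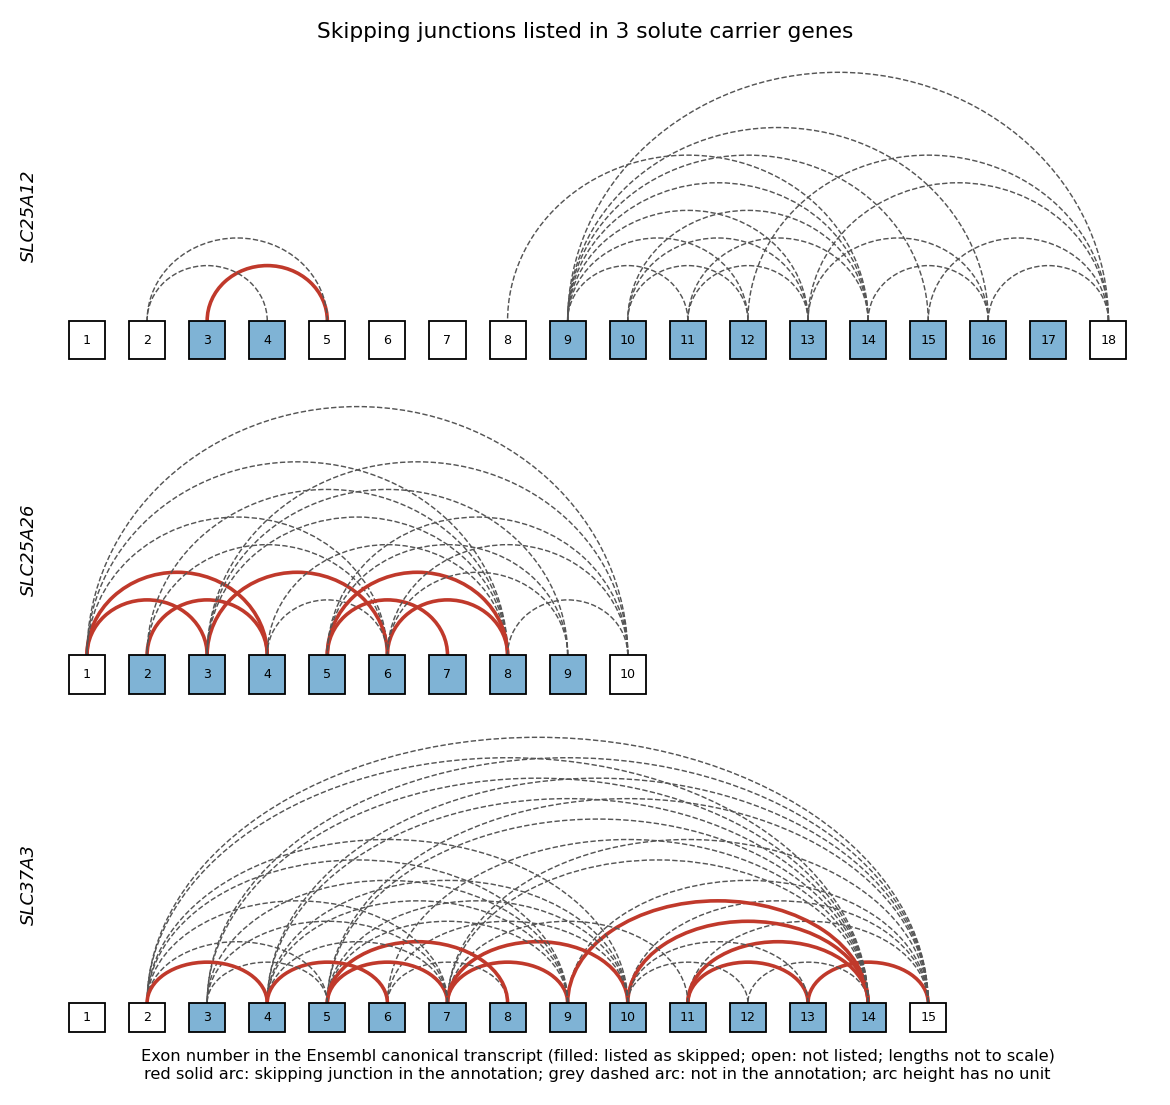
Skipping junctions listed in SLC25A12, SLC25A26 and SLC37A3, drawn as arcs over the numbered exons of the Ensembl canonical transcript (filled boxes were listed as skipped; exon lengths are not to scale and arc height has no unit). Solid red arcs are in the annotation and dashed grey arcs are not, and only junctions with both ends on canonical exons are drawn. SLC25A12 has arcs at exons 2 to 5 and at exons 8 to 18 and none between exons 5 and 8.

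Over all solute carrier genes there were 1450 distinct skipping junctions, 289 in SLC25 and 1161 in the others. The annotation held 59 of the SLC25 junctions (20.4%, 16.2 to 25.4%) and 236 of the others (20.3%, 18.1 to 22.7%), compared with 19.1% in all genes. Counted by exon, 58 of 187 SLC25 exons (31.0%, 24.8 to 38.0%) and 240 of 880 others (27.3%, 24.4 to 30.3%) had at least 1 annotated skipping junction. With each event counted once the shares were 17.3% in SLC25 and 18.5% in the others, so the order of the classes turned. For the other 769 solute carrier exons, no annotated transcript skipped them with the listed neighbours. Whether such a junction was seen in reads or came from the annotation used by the authors cannot be told apart here. Among junctions that joined canonical exons, those that jumped 3 or more made up 26.8% in SLC25 (21.8 to 32.4%) and 22.7% in the others (20.3 to 25.3%).

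Skipping an exon keeps the reading frame only when the bases removed are a multiple of 3. Such lengths were found in 68 of 187 SLC25 exons (36.4%, 29.8 to 43.5%) and 300 of 880 others (34.1%, 31.0 to 37.3%). For all 1067 exons the share was 34.5% (31.7 to 37.4%), and in all exons of the table it was 38.8% (38.4 to 39.2%). Among fully coding exons the shares were 38.4%, 34.2% and 39.5% for SLC25, the other SLC genes and the whole table. Among junctions that joined canonical exons and jumped coding exons only, the bases jumped were a multiple of 3 in 91 of 247 SLC25 junctions (36.8%, 31.1 to 43.0%) and 348 of 991 others (35.1%, 32.2 to 38.1%), against 40.5% in all genes. For solute carrier junctions in the annotation the share was 39.2% (33.1 to 45.7%), and for those outside it 34.6% (31.7 to 37.6%). In all genes these shares were 48.0% (47.1 to 48.9%) and 39.0% (38.6 to 39.4%).

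Between the groups of carriers, assigned by family number, this share ranged from 18.5 to 57.9%. Metal ion transporters had 55 of 121 exons with a length that is a multiple of 3 (45.5%, 36.9 to 54.3%) and monocarboxylate transporters 11 of 19 (57.9%, 36.3 to 76.9%). Vitamin transporters had 5 of 27 (18.5%, 8.18 to 36.7%) and nucleoside transporters 7 of 34 (20.6%, 10.3 to 36.8%). SLC35C2, a member of the nucleotide sugar transporter family, had 12 listed exons and none was a multiple of 3. The choline transporter-like genes SLC44A2 and SLC44A5 had 8 and 10 listed exons, and none of these was a multiple of 3 either. In SLC25A20, the carnitine-acylcarnitine carrier, none of 5 exons was, whereas in SLC25A25, an ATP-magnesium and phosphate carrier, 5 of 6 were.

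SLC25 exons had a median length of 110 bases (105 to 120), exons of the other families 125 (120 to 130) and all listed exons 114. The intervals of SLC25 and of the other families met at 120 bases. The lower quartile was 79.5 bases in SLC25 and 93 in the others. Introns were measured to the neighbours in the event, and the shortest over the events of an exon was taken. SLC25 exons had more events, so the shortest was taken over more of them. Upstream introns had medians of 2275 bases in SLC25 (1730 to 2848) and 2156 in the others (1817 to 2524). Among exons with exactly 1 event the order turned, with 1434 bases in SLC25 and 2239 in the others. Downstream introns, taken the same way over all exons, had medians of 2226 in SLC25 (1903 to 2722) and 1758 in the others (1588 to 1981). Splice sites were scored against the base frequencies of annotated sites with GT (5') or AG (3'), in bits of log2 odds over equal base use. The median score of the 5' splice site was 8.38 in SLC25 (8.02 to 8.82) and 8.23 in the others (8.02 to 8.38). That of the 3' splice site was 9.26 (8.27 to 10.0) and 8.92 (8.67 to 9.28), so both scores had overlapping intervals.

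All 187 SLC25 exons lay between AG and GT. Among the other families 10 of 880 exons did not, and in 9 of these the intron after the exon began with GC, a rare but known 5' splice site. Over the whole series, 638 of 67154 listed exons (0.950%) were followed by GC. The GC sites are shown with the last 3 bases of the exon in capitals and 6 bases of the intron. They are printed because the C of a GC site does not pair with the U1 small nuclear RNA, which reads the 5' splice site. Other bases of these sites can be unpaired too, and they were not counted.
SLC11A2 exon 8, chr12:51392957-51393024, minus strand: GAGgcaagt
SLC12A2 exon 21, chr5:127512797-127512844, plus strand: AAGgcaggc
SLC19A1 exon 2, chr21:46957685-46957922, minus strand: CAGgcatgt
SLC27A1 exon 10, chr19:17611521-17611685, plus strand: CAGgcaagc
SLC35B4 exon 6, chr7:133986513-133986573, minus strand: TAGgcaagt
SLC4A1AP exon 6, chr2:27898399-27898559, plus strand: TTGgcaagt
SLC4A1AP exon 11, chr2:27910801-27910887, plus strand: CAGgcaagt
SLC4A7 exon 7, chr3:27472789-27473160, minus strand: CAGgcaact
SLC6A9 exon 6, chr1:44468525-44468657, minus strand: AAAgcaagt

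The skipping junction was annotated for 3 of these 9 exons, those of SLC12A2, SLC27A1, a fatty acid transporter, and SLC4A7, a sodium bicarbonate cotransporter. Exon 21 of SLC12A2 is the alternative exon known to separate its longer and shorter forms. It spans 48 bases at chr5:127512797-127512844 and was the only one of the 13 listed SLC12A2 exons with an annotated skipping junction. Its 3' splice site scored 2.96, the 5' splice site -10.63. The 5' score was built from GT sites only, so any GC site scores low by construction. The 9 GC sites scored from -10.63 to -6.55, and these values do not measure how weak the sites are. Its sequence is shown with the exon in capitals.
SLC12A2 exon 21, plus strand: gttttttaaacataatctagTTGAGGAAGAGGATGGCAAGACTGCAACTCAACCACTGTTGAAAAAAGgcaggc

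Exon 7 of SLC4A7 spans 372 bases at chr3:27472789-27473160, and a junction that skips it is annotated. SLC4A7 had 12 listed exons of 24 internal ones, 4 of them with an annotated skipping junction. The remaining exon that was not between AG and GT was exon 3 of SLC38A3, a glutamine transporter, where the bases before the exon were CA.

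Other carriers with well-known roles were also listed. SLC25A3 had exons 3, 4, 6 and 7 listed, with 122, 180, 173 and 111 bases, each in 1 event and none with an annotated skipping junction. In SLC2A1, the GLUT1 glucose transporter, exons 2, 3, 4 and 8 were listed, and only the skipping of exon 2, with 96 bases, was annotated. SLC1A5, the neutral amino acid transporter ASCT2, had exons 2, 3, 5 and 7 listed in 7 events, none annotated. SLC3A2, the heavy chain that pairs with amino acid transporters of the SLC7 family, had all 7 internal exons listed, plus 5 exons outside its canonical transcript. SLC7A2, a cationic amino acid transporter, had 1 exon listed, exon 4 with 156 bases. SLC11A2 exon 3, with 149 bases, was listed in 10 events, and a shorter form of it with 69 bases in 2.

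Mutually exclusive exons were listed for 133 solute carrier genes, in 690 events (1.73% of 39869), of which 169 events of 29 genes were in SLC25. These events held 506 different exon pairs, and in 493 both exons were also listed as skipped. The lengths differed by a multiple of 3 or not at all in 177 pairs, and 5 pairs had equal lengths. In SLC39A14, a zinc and iron transporter known for such a pair, the exons of 170 bases shared 68.2% of bases and 64.3% of 56 residues. The pairs of the other 4 genes were less alike. The exons shared 26.4% of bases in SLC25A39 (110 bases each), 30.6% in SLC36A4 (170), 23.5% in SLC44A2 (85) and 25.9% in SLC44A5 (85).

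SLC44A2 and SLC44A5 are members of 1 family, and their pairs occupy matching places. The first exons of both pairs shared 69.4% of 85 bases with each other, and the second exons 62.4%. Neither gene had such likeness within its pair. The 4 exons are printed in transcript order to show that the likeness is between the genes.
SLC44A2 exon 4, chr19:10738596-10738680, plus strand: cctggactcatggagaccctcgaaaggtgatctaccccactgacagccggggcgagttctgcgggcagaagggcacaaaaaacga
SLC44A5 exon 6, chr1:75740643-75740727, minus strand: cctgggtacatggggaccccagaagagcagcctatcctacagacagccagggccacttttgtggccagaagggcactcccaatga
SLC44A2 exon 5, chr19:10741733-10741817, plus strand: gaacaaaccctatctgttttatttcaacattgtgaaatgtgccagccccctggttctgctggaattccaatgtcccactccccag
SLC44A5 exon 7, chr1:75716895-75716979, minus strand: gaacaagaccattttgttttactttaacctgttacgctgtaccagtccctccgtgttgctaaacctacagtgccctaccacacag

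The tables of the remaining event types were smaller. Solute carrier symbols supplied 51 of 2620 events with an alternative 5' splice site (1.95%, 1.48 to 2.55%), in 25 genes, and 66 of 2868 with an alternative 3' splice site (2.30%, 1.81 to 2.92%), in 42 genes. They supplied 14 of 677 retained introns (2.07%, 1.24 to 3.44%), in 12 genes, and 1.71% of the skipped-exon events. The symbols with alternative 5' splice sites included SLC16A1-AS1, an antisense RNA that names no carrier, and SLC35C1 and SLC35G2, none of which had a listed skipped exon. SLC25 supplied 2, 12 and 2 of these. The alternative 5' splice sites were in SLC25A14, with a difference of 9 bases, and SLC25A25, with 43. The 3' splice sites of SLC25A13 and SLC25A36 differed by 3 bases. The retained introns belonged to SLC25A1, with 146 bases, and SLC25A3, with 234 bases. The median retained intron of solute carrier genes spanned 285 bases, close to 283 bases over the whole table.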

How the data were processed

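RNA-seq of HEK293T cells (1 control and 1 amiloride library) was available as 5 deposited rMATS tables, 1 per event type, made by the authors. The submitters' processing notes name STAR 2.5.1 and hg19 (GRCh37), while the rMATS version was not given in the sources used here. The deposited position columns used here hold other values, genomic coordinates, rather than a score or level. The tables also hold 30 columns of read counts and inclusion levels for libraries that are only numbered, and 15 columns of the authors' own comparison (p-value, false discovery rate and inclusion difference). None of these was used, so no depth or inclusion difference was computed, and no between-condition test was run.

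Rows were reduced to distinct exons per gene. Symbols were matched to the lifted GENCODE release 44 annotation on GRCh37 (217 of 220 matched, 3 did not: SLC22A20, SLC26A10 and SLC35E2), and sequences were read from GRCh37. A skipping junction was annotated when any transcript held that intron. Splice site scores summed log2 odds over 9 bases (5') or 23 bases (3') from 300873 annotated sites with GT and 300290 with AG, with a pseudocount of 0.5. Named genes were the 3 SLC25 and 5 other genes with the most listed exons, with ties by symbol. To these were added the exons with the most events, the 5 shortest and 3 longest coding exons, equal-length mutually exclusive pairs, signature exons and a list of well-known carriers. Members, substrate groups and lists were chosen with earlier results of these data known. Python 3.11.15, pandas 2.3.3, statsmodels 0.14.6, scipy 1.17.1, Biopython 1.88 and pysam 0.24.0 were used. Counting and intervals were tested on simulated data. A few items, including 1 SLC25 gene left out of the plot of internal exons, are not reported here.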

Additional observations from a re-analysis of the deposited data

How the results depend on the processing

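Of 86 alternative values, 68 stayed within the interval of the value reported and 18 did not. Each cause was not tested unless the alternative itself shows it. Some of the 68 could not move or could hardly move. All 187 SLC25 exons lay between AG and GT, so keeping only such exons left every SLC25 value as it was. The same rule removed 10 of 880 exons in the other families, and leaving out the antisense gene removed 1 of 187. With each event counted once, exons with many events weigh more, and the measure changes too. Each event's own junction and introns then count, not any annotated junction or the shortest introns over an exon's events. Annotated skipping junctions fell to 17.3% in SLC25 and 18.5% in the other families. Upstream introns rose to 4117 and 3161 bases, and downstream introns to 3044 and 2360. With exactly 1 event per exon, the upstream intron was 1434 bases in SLC25 and 2239 in the others, which turned their order, and annotated skipping in the others 22.7%. Counting protein-coding transcripts only, annotated skipping was 22.5% in SLC25 and 16.9% in the others. Exons with every base coding made up 87.7 and 90.9%. Genes with at least 3 listed exons had a median of 6 listed exons in the other families, and 72.3% (SLC25) and 56.1% (others) of their internal exons were listed. Genes were kept here by their number of listed exons, so the median could not fall and higher shares were favoured. This alternative, like the 3 that follow, was partly or wholly chosen after seeing the data. Including genes not listed under their current symbol, SLC25 had 61.3% and the other families 27.9% of internal exons listed. For genes with 4 to 9 internal exons the value was 54.9%. Leaving out the 4 symbols found to name no carrier moved none of the values tried outside its interval. It was tried for frame, coding, annotated skipping, length, introns and splice site scores. Mutually exclusive pairs numbered 177 when a length difference divisible by 3 was allowed, compared with 5. No paired analysis was possible because the series has a single library per condition and the columns carry no condition. The inclusion level per library and its difference between conditions were not computed for the same reason.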
